A study of Homo sapiens with 2 samples.

Results

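The 10 genes described here are the ID family (ID1, ID2, ID3 and ID4), the BMP ligands BMP4 and BMP7, the signal transducer SMAD1, and the feedback genes SMAD6, SMAD7 and BAMBI. They were chosen by name from the 19198 genes of the deposited tables, and each of them had 1000 reads or more when both libraries were added up. Polyadenylated RNA was sequenced from cells labelled A549, a human line of non-small cell lung cancer (NSCLC). There was 1 library of cells overexpressing NICD1, the intracellular domain of NOTCH1 (A549-NICD1), and 1 library of cells with the vector control (A549-Vector). The study describes stable lines made by viral infection and antibiotic selection, and does not say whether a line came from 1 clone. Levels are taken as FPKM, reads scaled to the length of the gene and the depth of the library. Reads and depths were recovered from these values, and the reads of a gene are lower bounds. With 1 library per condition there is no test and no p-value, and the condition and the library cannot be told apart. Intervals beside folds are 95% Clopper-Pearson intervals of the reads and cover counting error only.

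Bone morphogenetic proteins (BMPs) are secreted ligands that bind paired type I and type II receptor kinases. The receptors phosphorylate SMAD1, SMAD5 and SMAD9, which join SMAD4 and activate genes in the nucleus, among them the ID genes. ID proteins have a helix-loop-helix for pairing but no basic region for DNA binding, so that they hold E proteins and related factors away from DNA and favour growth over differentiation. The pathway also switches on its own brakes: SMAD6 and SMAD7 block receptors and SMADs, and BAMBI is a receptor decoy without a kinase domain. NICD1 acts with the DNA-binding protein RBPJ, and both pathways are known to act on ID and HEY genes. In the lung, BMP4 is known for its part in airway branching.

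The overexpressed gene matched the labels, with NOTCH1 at 2865 FPKM in the NICD1 library and 5.40 FPKM in the vector library. RFC4, a subunit of the replication factor C complex that the labels do not name, was at 39.5 FPKM in the vector library and at 4075 FPKM in the NICD1 library, where it ranked 1 among all genes by level (107-fold). The study reports RFC4 among the genes that NICD1 raised in these data. In other experiments it saw RFC4 RNA and protein rise when Notch was activated and fall when Notch was inhibited. From these, and from histone, binding and reporter assays, it also proposes RFC4 as a direct target of Notch signalling. Whether the RFC4 level here comes from such regulation was not tested. The libraries therefore differ in RFC4 as well as in NICD1, and what goes with either cannot be told apart in any value below. The Notch target HES5 was at 115 and 7.78 FPKM in the same order, HES1 at 37.7 and 32.7 FPKM, and HEY1 at 61.8 and 45.2 FPKM. The recovered depth was 48602848 reads for the vector library and 48528434 for the NICD1 library. Of 16 marker genes listed for A549 cells, 10 were under 1 FPKM in both libraries, among them KRT7, KRT19, FGA and FGB at 0 in both. Of 9 marker genes listed for HEK293, an embryonic kidney line of which the study also grew a derivative, 8 were at 1 FPKM or more in both. The summed level of the A549 markers was 177 FPKM in the vector library and 325 FPKM in the NICD1 library, carried by the keratins KRT8 (85.9 and 176 FPKM) and KRT18 (73.1 and 130 FPKM). That of the HEK293 markers was 254 and 241 FPKM. CDKN2A, on that list and known to be deleted in A549 cells, was at 139 FPKM in the vector library and 138 FPKM in the NICD1 library. These markers go against the label A549 in both libraries, which is kept below only as the name the submitters gave. The part of these markers in the results below was not tested, and the folds below compare these libraries whichever cells they hold.

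The promoters of the members that differed most, and of their family, are shown. SMADs, RBPJ or E proteins could act through such stretches, among others. The stretches shown are the 250 bases before the RefSeq start site on GRCh38.p14, read 5′ to 3′ along the gene. Capitals mark matches on either strand to TGGGAA (RBPJ), GGCGCC (a GC-rich SMAD1 and SMAD5 element), the E-boxes CACGTG, and also CAGCTG, and also CACCTG, or GTCTAGAC (a SMAD element, searched only after the SMAD6 sequence had been seen). No match overlaps another in the stretches printed.
ID1 (chr20:31605039-31605288, plus strand): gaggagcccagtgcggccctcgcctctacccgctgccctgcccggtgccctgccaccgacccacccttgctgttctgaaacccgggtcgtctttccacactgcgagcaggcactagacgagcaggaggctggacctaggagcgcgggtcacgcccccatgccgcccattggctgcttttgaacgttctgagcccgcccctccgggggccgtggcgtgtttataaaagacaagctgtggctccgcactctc
ID2 (chr2:8681806-8682055, plus strand): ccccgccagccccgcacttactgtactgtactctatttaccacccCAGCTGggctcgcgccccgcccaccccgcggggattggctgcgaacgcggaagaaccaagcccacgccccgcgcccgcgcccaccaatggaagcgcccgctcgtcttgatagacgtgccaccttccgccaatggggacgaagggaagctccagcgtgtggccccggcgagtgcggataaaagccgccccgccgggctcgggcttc
ID3 (chr1:23559502-23559751, minus strand): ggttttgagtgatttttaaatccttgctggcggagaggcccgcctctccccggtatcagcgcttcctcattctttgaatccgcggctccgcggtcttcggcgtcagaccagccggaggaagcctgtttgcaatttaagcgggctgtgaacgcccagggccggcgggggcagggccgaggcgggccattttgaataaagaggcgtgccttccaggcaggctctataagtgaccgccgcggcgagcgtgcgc
ID4 (chr6:19837120-19837369, plus strand): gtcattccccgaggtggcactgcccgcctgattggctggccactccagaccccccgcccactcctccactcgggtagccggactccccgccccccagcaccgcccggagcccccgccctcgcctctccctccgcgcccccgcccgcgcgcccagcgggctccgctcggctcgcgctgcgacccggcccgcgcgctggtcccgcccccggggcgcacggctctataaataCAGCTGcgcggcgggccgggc
BMP4 (chr14:53955051-53955300, minus strand): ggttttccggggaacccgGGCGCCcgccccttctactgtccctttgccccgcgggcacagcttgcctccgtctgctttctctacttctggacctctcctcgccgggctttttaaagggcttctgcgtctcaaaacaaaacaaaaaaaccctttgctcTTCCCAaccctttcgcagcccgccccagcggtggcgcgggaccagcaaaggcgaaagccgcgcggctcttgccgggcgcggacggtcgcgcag
SMAD6 (chr15:66701986-66702235, plus strand): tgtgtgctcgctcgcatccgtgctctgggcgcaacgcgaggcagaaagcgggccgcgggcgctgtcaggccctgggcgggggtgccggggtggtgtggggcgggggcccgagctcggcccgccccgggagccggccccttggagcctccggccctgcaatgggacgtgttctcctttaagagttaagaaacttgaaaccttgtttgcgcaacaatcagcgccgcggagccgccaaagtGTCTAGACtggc
BAMBI (chr10:28677271-28677520, plus strand): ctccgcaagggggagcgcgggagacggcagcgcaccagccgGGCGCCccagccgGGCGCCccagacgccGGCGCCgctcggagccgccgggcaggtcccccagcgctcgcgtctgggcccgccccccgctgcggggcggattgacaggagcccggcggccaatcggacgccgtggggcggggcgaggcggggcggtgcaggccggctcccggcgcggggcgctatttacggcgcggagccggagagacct

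ID1 and ID3 held none of the 6 motifs in this window, while ID2 and ID4 each held 1 CAGCTG, which 13.28% of the 14514 promoters searched also hold. It began 205 bases before the start site in ID2 and 21 bases before it in ID4. BMP4 held 1 GGCGCC and 1 TGGGAA, the latter on the opposite strand. BAMBI held 3 copies of GGCGCC, starting 209, 196 and 181 bases before its start site, in a stretch of 81.2% G and C, against a median of 62.4% over the promoters searched. GGCGCC occurs in 21.72% of the promoters and TGGGAA in 19.9%. SMAD6 held 1 GTCTAGAC, starting 12 bases before the start site, a motif found in 0.17% of the promoters. The BMP response element, GGCGCC followed after 5 bases by GTCT, is in 0.11% of the promoters and in none of the members' windows. Of the 10 members 9 had a RefSeq promoter entry, all but BMP7. The SMAD1 window held 1 CACGTG, found in 7.86% of promoters, and the SMAD7 window held none of the 6 motifs. CACCTG, found in 16.87% of promoters, was in none of the 9 windows. A match says nothing of binding in these cells. The lack of a match says nothing of sites farther away or at other start sites, which were not searched.

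The ID family split in the NICD1 library: ID3 and ID1 were higher and ID2 and ID4 lower than in the vector library. ID3, an ID protein on chromosome 1 that pairs with E proteins as its relatives do, was at 78.2 FPKM (4712 reads) in the vector library and at 131 FPKM (7871 reads) in the NICD1 library. It was the highest of the 10 members in the NICD1 library and had the farthest fold from 1, at 1.74-fold (interval 1.67 to 1.80), a log2 fold change of 0.80 after scaling. ID1, the classical early BMP target, was at 33.3 FPKM (1803 reads) and 41.8 FPKM (2260 reads), which is 1.30-fold (interval 1.22 to 1.39). For these genes, as for all below, a change in the number of cells that express them and a change in RNA per cell cannot be told apart in bulk RNA.

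ID2, which is also known for binding the retinoblastoma protein, was at 103 FPKM (6797 reads) in the vector library and at 87.4 FPKM (5782 reads) in the NICD1 library, or 0.884-fold (interval 0.854 to 0.916). ID4, which can also pair with the other ID proteins, was at 39.9 FPKM (7511 reads) and 31.3 FPKM (5881 reads), or 0.814-fold (interval 0.787 to 0.842). The counting intervals of ID1 and ID3 lay above 1 and those of ID2 and ID4 below 1. Among all genes with at least 1000 reads summed, 31% had an interval above 1 and 31.1% below 1. The change of ID2 lay within the middle 90% of genes with like reads, and that of ID4 just below it. The ID2 gene overlaps the antisense gene ID2-AS1 in GENCODE 29 exons, and SMAD1 overlaps SMAD1-AS1. The study's supplement calls the sequencing strand-specific. Whether the counting used strand is not given in the sources used here, so the part of antisense reads in the values of ID2 and SMAD1 was not tested.

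**Figure D1:**
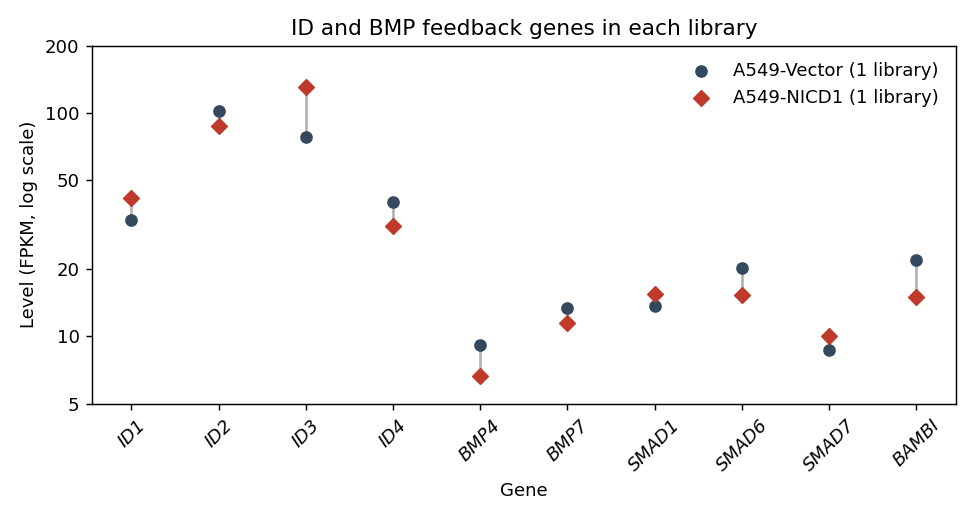
Level of each gene in FPKM on a log axis, with 1 point for A549-Vector and 1 for A549-NICD1. ID3, ID1, SMAD1 and SMAD7 have their red diamond (A549-NICD1) above the dark circle, and the other 6 genes have it below. The widest gaps on this axis are those of ID3 and BAMBI.

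The order within the family also differed. Per length, the order in the vector library was ID2, ID3, ID4 and ID1, and in the NICD1 library it was ID3, ID2, ID1 and ID4. ID3 stood at 0.763 times the level of ID2 in the vector library and at 1.50 times that level in the NICD1 library, a comparison within each library that no scaling between them affects. ID1 stood at 0.835 times the level of ID4 in the vector library and at 1.34 times it in the NICD1 library. ID3 made up 30.8% of the summed ID level in the vector library and 44.9% in the NICD1 library, and ID2 40.4% and 30.0%. The sum itself was 254 FPKM in the vector library and 291 FPKM in the NICD1 library. How far such ratios vary between cultures is not known from 1 library each.

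**Figure D2:**
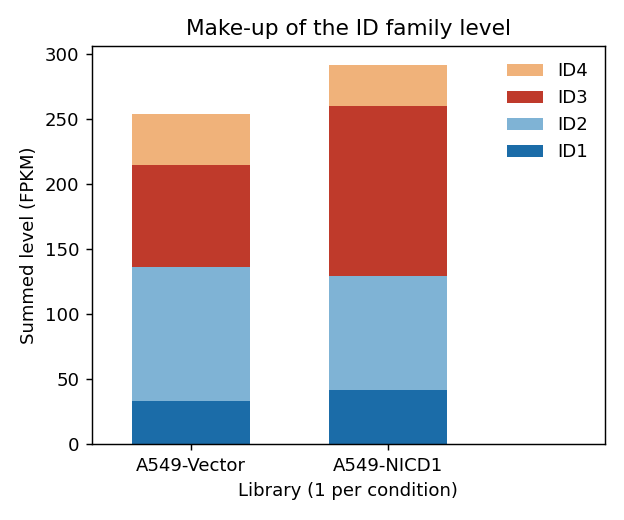
Summed level of the 4 ID genes in FPKM, with 1 bar per library and 1 colour per gene. The ID3 part is 78.2 FPKM high in A549-Vector and 131 FPKM high in A549-NICD1, while the ID2 and ID4 parts are smaller in A549-NICD1.

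Of the 3 E proteins, the DNA-binding partners that ID proteins sequester, 2 had a counting interval below 0 and TCF12 did not, against 27.6% of all genes. TCF3 was at 55.7 FPKM in the vector library and 48.5 FPKM in the NICD1 library, with a log2 fold change of -0.15 (interval -0.18 to -0.11). TCF4 and TCF12, the rest of that list, were at 9.63 and 17.5 FPKM in the vector library and at 7.96 and 16.2 FPKM in the NICD1 library. The log2 fold change was -0.22 for TCF4 (interval -0.29 to -0.15) and -0.06 for TCF12 (interval -0.12 to 0.01). Set against the summed RNA of the E protein genes, the ID sum was 3.06 times as high in the vector library and 4.01 times as high in the NICD1 library. These are RNA levels, and protein was not measured in these libraries. ID3 was 52.7 FPKM higher in the NICD1 library, a larger step than that between the ID sums.

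The ligands among the members were both lower in the NICD1 library. BMP4 was at 9.14 FPKM (825 reads) in the vector library and at 6.65 FPKM (599 reads) in the NICD1 library, or 0.755-fold (interval 0.678 to 0.840). BMP7, known for its part in kidney development, was at 13.4 FPKM (2632 reads) and 11.4 FPKM (2236 reads), or 0.883-fold (interval 0.834 to 0.935). BMP7 was the highest of the BMP and growth differentiation factor (GDF) ligands in both libraries. Of the 14 ligands listed, 10 had at least 10 reads in a library, and 8 of these were lower and 2 higher in the NICD1 library, with a counting interval below 0 for 4 and above 0 for 2, against 27.6% and 26.8% of all genes. The higher ones were BMP6, a ligand also known for control of iron, at 3.49 FPKM in the vector library and 6.30 FPKM in the NICD1 library (1.88-fold, interval of the log2 fold change 0.77 to 1.05), and BMP5 at 0.388 and 0.682 FPKM. BMP3, known as an antagonistic ligand, was at 0.342 and 0.0743 FPKM with 97 and 21 reads. The summed ligand level was 45.1 FPKM in the vector library and 40.9 FPKM in the NICD1 library, so that BMP6 offset only a share of the lower values.

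Of 11 receptors and co-receptors with at least 10 reads, 5 had a counting interval below 0 and 2 above 0, against 27.6% and 26.8% of all genes. In sign alone 8 were lower and 3 higher in the NICD1 library, against 7649 lower and 7459 higher among all genes, with a median log2 fold change of -0.10. The median over all 15108 genes that had 10 reads or more in either library was -0.004 on the same scale. The co-receptor RGMA was at 11.8 FPKM in the vector library and 7.34 FPKM in the NICD1 library, or 0.643-fold. The endothelial co-receptor ENG was at 0.606 and 1.04 FPKM. NEO1, the receptor for RGM proteins and the highest gene of the list, was at 23.2 and 25.6 FPKM.

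SMAD1, the transducer that BMP receptors phosphorylate, was slightly higher in the NICD1 library. It was at 13.7 FPKM (1982 reads) in the vector library and at 15.4 FPKM (2225 reads) in the NICD1 library, or 1.17-fold (interval 1.10 to 1.24). SMAD5, its close relative and the highest SMAD in both libraries, was at 31.0 and 27.2 FPKM, and so lay on the other side of 1. The 6 receptor-regulated and common SMADs were higher for 3 genes and lower for 3, with a median log2 fold change of 0.03 and none past 0.5. Among all genes with at least 1000 reads summed, 1.61% were higher and 2.01% lower by at least 0.5.

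The feedback genes lay on both sides of 1. SMAD6, which acts mainly on the BMP branch, was at 20.3 FPKM (2837 reads) in the vector library and at 15.3 FPKM (2136 reads) in the NICD1 library, or 0.783-fold (interval 0.740 to 0.828). SMAD7, which restrains both the BMP and TGF-beta branches, was at 8.69 FPKM (573 reads) and 9.999 FPKM (658 reads), or 1.19-fold (interval 1.07 to 1.34). BAMBI was at 21.9 FPKM (1837 reads) and 14.9 FPKM (1250 reads), or 0.707-fold (interval 0.658 to 0.761). SMAD6 and BAMBI were thus lower in the NICD1 library and SMAD7 higher. SMAD6 stood at 2.33 times the level of SMAD7 in the vector library and at 1.53 times in the NICD1 library, and BAMBI at 2.52 and 1.49 times. SMAD6 exceeded SMAD1 in the vector library, at 1.48 times its level, and was at 0.990 times that level in the NICD1 library.

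**Figure D3:**
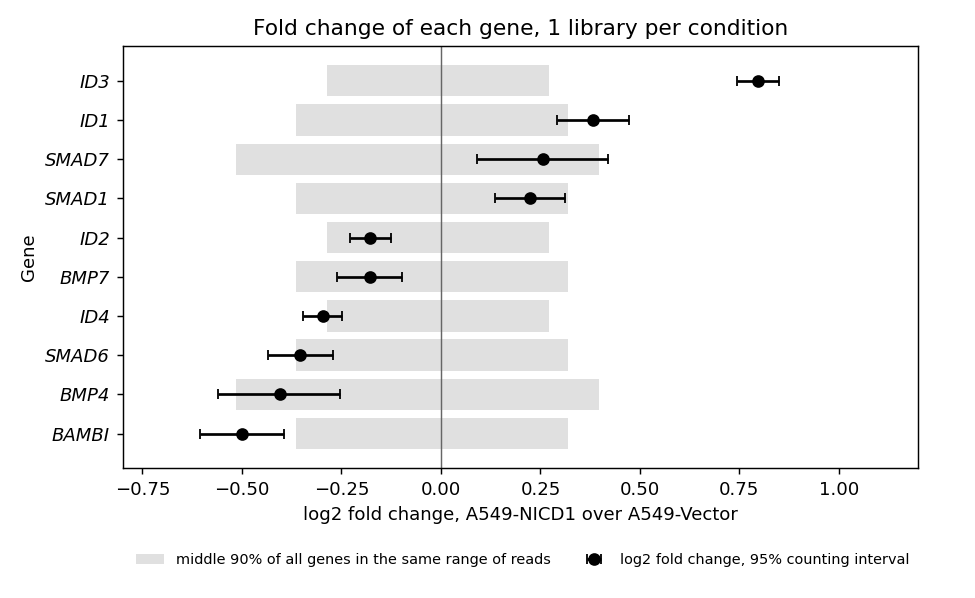
The log2 fold change of each gene, A549-NICD1 over A549-Vector (horizontal axis), with its 95% counting interval. Grey bars span the middle 90% of all genes in the same range of reads. ID3, at 0.80, lies far to the right of its bar, ID1 lies just right of its bar, and BAMBI and ID4 lie to the left of theirs.

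Read against all genes, the differences of most members were ordinary in size. No member reached a log2 fold change of 1 in either direction, against 3.92% of all genes higher by that much and 2.04% lower. ID3 alone was higher by at least 0.5, against 8.13% of all genes, or 1.61% of the 9840 genes that, like every member, had at least 1000 reads summed. None was lower by at least 0.5, against 7.57% of all genes and 2.01% of those with at least 1000 reads, with BAMBI just short of it at -0.50. The counting interval lay wholly above 0 for 4 members and wholly below 0 for 6. All genes gave 26.8% above and 27.6% below, and genes with at least 1000 reads 31% and 31.1%. Such an interval is therefore common in these libraries and says little about the condition.

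A finer view comes from genes in the same range of reads. Among 3894 genes with 5000 to 20000 reads summed, the middle 90% of the log2 fold changes lay between -0.29 and 0.27. ID3, at 0.80, was above that range, ID4, at -0.30, was just below it, and ID2, at -0.18, was within it. Among 3360 genes with 2000 to 5000 reads the range was -0.36 to 0.32. BAMBI, at -0.50, lay below it and ID1, at 0.38, above it, while SMAD6, at -0.35, SMAD1, at 0.22, and BMP7, at -0.18, lay within. SMAD6 had 4973 reads summed, just under the 5000 at which the narrower range applies, and would lie below that one. Its place within therefore depends on that edge. Among 1784 genes with 1000 to 2000 reads the range was -0.52 to 0.40, and BMP4, at -0.41, and SMAD7, at 0.26, lay within it. In all, 2 members were above their range, 2 below and 6 within. This count depends on where the ranges were cut and on the recovered reads. By log2 fold change ID3 ranked 741 of 15108 genes. By level it ranked 850 in the vector library and 392 in the NICD1 library.

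**Figure D4:**
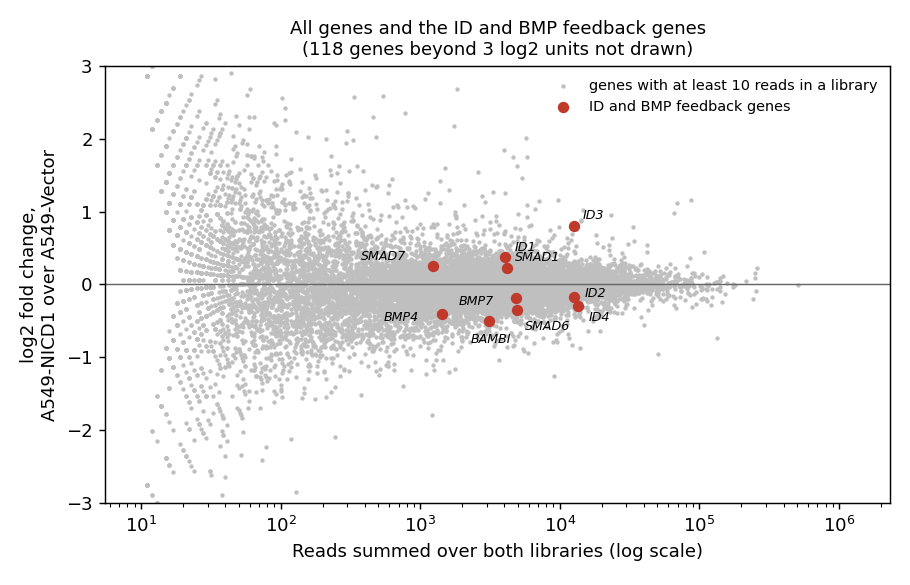
Each grey point is a gene with 10 reads or more in either library, placed by its reads summed over both libraries (log axis) and its log2 fold change, A549-NICD1 over A549-Vector. The 10 members are red, and ID3, at 0.80, stands at the upper edge of the genes with like reads, while the others lie in or near the grey band. A total of 118 genes beyond 3 log2 units are not drawn.

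Of the 16 secreted BMP antagonists with at least 10 reads, 6 were lower in the NICD1 library by at least 0.5 on the log2 scale, against 7.57% of all genes, and 0 were higher by as much, against 8.13%. The counting interval lay below 0 for 5 of the 16 and above 0 for 3, against 27.6% and 26.8% of all genes. NOG (noggin), which binds BMP ligands and is itself switched on by BMP signalling, was at 4.43 FPKM (407 reads) in the vector library and at 1.96 FPKM (180 reads) in the NICD1 library, or 0.460-fold. SOSTDC1 was at 75 and 26 reads, GREM1 at 58 and 39, CHRDL1 at 220 and 136 and CHRDL2 at 18 and 11. Except for NOG and CHRDL1, these had under 100 reads in each library, and the counting intervals of GREM1 and CHRDL2 held 0. FSTL1, the highest antagonist, was at 43.6 and 37.5 FPKM. The median log2 fold change of the list was -0.12, but 0.004 where 100 reads were required and 0.06 once genes averaging under 1 FPKM were dropped.

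Other genes that BMP signalling is known to act on went both ways. The list holds ID4 again and NOG, HES1 and SMAD9. Of 15 with at least 10 reads, 8 were higher and 7 lower, against 7459 higher and 7649 lower among all genes. Their median log2 fold change was 0.07. DLX2, a homeobox gene, was at 19.8 FPKM in the vector library and 30.8 FPKM in the NICD1 library (1.62-fold). HEY1, a repressor that both Notch and BMP signalling activate, had a 1.42-fold value, whereas ATOH8 was at 0.484 and 0.278 FPKM. The 16 SMAD ligases, phosphatases and corepressors had a median log2 fold change of -0.04, and none was past 0.5 in either direction. Of all genes, 8.13% were higher and 7.57% lower by as much, and of those with at least 1000 reads summed, 1.61% and 2.01%. The highest of them, the ubiquitin ligase STUB1, was at 36.7 and 34.0 FPKM.

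The neighbouring TGF-beta branch signals through SMAD2 and SMAD3. Of 16 genes, 7 were higher by at least 0.5 on the log2 scale, against 8.13% of all genes, and 1, the co-receptor TGFBR3, was lower, against 7.57%, at 6.26 FPKM in the vector library and 3.84 FPKM in the NICD1 library. CCN1 (CYR61 in the tables), a matrix-associated protein, was at 11.1 and 25.4 FPKM, or 2.38-fold, and CCN2 (CTGF) at 4.30 and 7.38 FPKM. PMEPA1, a feedback inhibitor of TGF-beta signalling, was at 2.79 and 5.18 FPKM. TGFB1, the ligand with the highest level in the list, was at 25.1 and 30.0 FPKM. TGFBI had 17 and 35 reads, INHBA 25 and 104, and TGFB2 80 and 117. The median log2 fold change of the list was 0.38, but -0.05 once genes averaging under 1 FPKM were dropped.

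**Figure D5:**
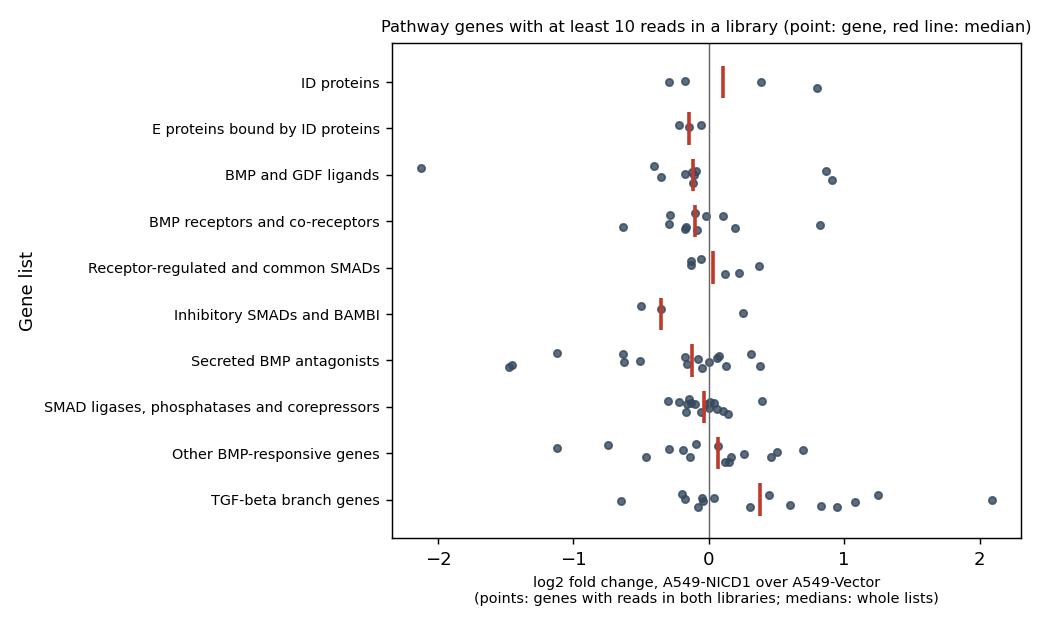
The log2 fold change, A549-NICD1 over A549-Vector, of the listed genes that passed the minimum of 10 reads, with 1 row per list, 1 point per gene that had reads in both libraries and a red line at the median of the whole list. The ID proteins spread from -0.30 to 0.80, the SMAD ligases and corepressors cluster around 0, and TGF-beta branch genes reach furthest to the right.

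In the genome (GRCh38, GENCODE 29), the members lie on 9 chromosomes, with ID1 (chr20:31605283-31606515) and BMP7 (chr20:57168748-57266629) on the same one. ID3 lies at chr1:23557918-23559794 on the minus strand, ID2 at chr2:8678845-8684453 and ID4 at chr6:19837386-19840684 on the plus strand. BMP4 lies at chr14:53949736-53958761 on the minus strand, SMAD1 at chr4:145481194-145558079, SMAD6 at chr15:66702228-66782848 and BAMBI at chr10:28677342-28682939 on the plus strand. SMAD7 lies at chr18:48919853-48952052 on the minus strand. Members that were higher and members that were lower were therefore not gathered on 1 chromosome. None of the 100-base windows taken every 50 bases along the longest transcript of each member occurs in a transcript of another gene name.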

How the data were processed

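Polyadenylated RNA was sequenced for 1 A549-NICD1 and 1 A549-Vector library. The values the authors deposited, 1 per gene and library, are taken as FPKM from their form, with no header naming the unit. The submitters' processing notes name hg38, Bowtie2 and HTSeq. Lengths, annotation and versions are not given in the sources used here. Of 19225 rows, 27 were dropped because a date number stood in place of the gene.

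Whole reads were recovered from the deposited tables alone. The ratio of a gene's values in the 2 libraries is a ratio of whole numbers times 1.001533, the ratio of depths. The depth was the largest at which most lengths of 400 genes were whole (70.0%, against 37.5% at double the depth). Reads were the smallest whole numbers, at lengths from 200 bases, that give both values, found for all 17178 genes above 0. They are lower bounds, up to a whole-number factor, and add up to 89.8% and 89.4% of the depths. Ratios do not depend on this factor, and intervals are then too wide rather than too narrow. On simulated libraries of 17178 genes both depths were found. The simulated ratio was found for 100% of the genes above 0 and the simulated reads for 85.0%. Of 12907 intervals of unchanged genes, 95.5% held 0. The simulation used the recovered lengths and counting error alone. It therefore cannot show how often reads are right at the true lengths, or how cultures vary.

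The log2 fold change was taken from reads with 0.5 added, divided by depth and by a trimmed-mean factor (0.9635 for A549-NICD1, leaving off 30% of ratios and 5% of levels at either end), in Python 3.11.15 with scipy 1.17.1. The pseudocount slightly understates the change of low genes. Lists count genes that reached 10 reads in either library. A Wald test as in the study needs counts and replicates and was not run.

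The members and lists were chosen with earlier results of these data known. The genes named besides the members were, by rule, listed genes at least 0.5 from 0 on the log2 scale (up to 8 a list) and the gene of each list highest in A549-Vector, with NOTCH1, HES1, HES5 and HEY1 as checks. RFC4 was added to the checks outside the rule, with its values known. TCF4, TCF12 and CDKN2A were also outside it and named after their values were seen. Some listed genes that the rule would name are not reported here. No molecular identifiers were used, so reads are not separate molecules and intervals cover counting error only. Alternatives covered scaling, pseudocount and filter. The ranges by read number and the motif GTCTAGAC were chosen after seeing the data.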

Additional observations from a re-analysis of the deposited data

How the results depend on the processing

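No paired analysis was possible because there was only 1 library of each kind. Every member kept its direction under the 3 other scalings and 3 other pseudocounts. The direction could hardly have turned. The scalings shifted genes by less than any member's change, and the pseudocounts were small beside the members' levels. The log2 fold changes ran from 0.74 to 0.80 for ID3, 0.33 to 0.39 for ID1 and -0.55 to -0.47 for BAMBI. Leaving out the scaling factor shifted the median of all genes by -0.05, and with it ID2 to -0.23, ID3 to 0.74 and ID4 to -0.35, outside their counting intervals. It also put 1 member, BAMBI, past -0.5, as did scaling by the upper quartile (1 member), against 0.

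Counts of genes past a fold depended on genes with few reads. Of all genes, 592 were higher and 308 lower by at least 1, which became 294 and 126 with a pseudocount of 0.1 FPKM, 45 and 7 with 1 FPKM, 1506 and 791 without a filter, 145 and 76 where 100 reads were required, and 88 and 32 where an average of 1 FPKM was. At a threshold of 0.5, 1229 were higher and 1144 lower, which became 267 and 214 with 1 FPKM, 2317 and 1742 without a filter, 484 and 670 with 100 reads, and 339 and 472 with a mean of 1 FPKM. Of the pathway genes 4 were higher and 4 lower by at least 1, which became 1 and 0 with a pseudocount of 1 FPKM and 1 and 1 with a mean of 1 FPKM, and with 100 reads 2 were higher. By at least 0.5, 13 were higher and 10 lower, against 6 and 3 with a pseudocount of 1 FPKM and 7 and 3 with a mean of 1 FPKM. The median of the secreted antagonists moved from -0.12 to 0.004 with 100 reads and 0.06 with a mean of 1 FPKM. That of the TGF-beta branch moved from 0.38 to 0.13 with a pseudocount of 1 FPKM, 0.17 with 100 reads and -0.046 with a mean of 1 FPKM. Stricter filters test fewer genes by construction. The other 275 values stayed within their limits, taken as the counting interval for a fold, 0.1 for a median and 1.5 times for a count.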
